A study of Mus musculus with 10 samples.

Results

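Genes of glutathione and NRF2 antioxidant defence, 10 in number, were followed through 10 mouse mammary tumours: the glutathione peroxidases Gpx1, Gpx2, Gpx3 and Gpx4, and the genes Nqo1, Hmox1, Gclc, Gclm, Slc7a11 and Txnrd1. They were chosen by symbol from the 26063 genes of the deposited table, and all 10 are protein-coding and passed the filter on low counts. Gene positions are those of the table, on GRCm38. Gpx2 was singled out in that choice because it varied most of them between tumours in earlier results of these data. Its own variation and its difference between genotypes are therefore given as descriptions with no test. The tumours came from female FVB/N mice of genotype 16IC/WT (5 tumours) or EIC/WT (5 tumours). Every mouse had received doxycycline at 2 mg/ml, and every tumour was taken at end point and frozen. The series title names HER2Δ16 and ENPP1, but the labels spell out neither 16IC nor EIC and do not name the promoter of a transgene. The animals are named separately in the labels, and the tumour numbers 1 to 5 are names given in sample order that link no tumours.

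NRF2, encoded by Nfe2l2, is a transcription factor that KEAP1 holds at a low level in unstressed cells and that accumulates when oxidants or electrophiles modify KEAP1. With a small MAF partner it binds antioxidant response elements and raises enzymes that make glutathione, reduce quinones, degrade haem and recycle thioredoxin. Glutathione peroxidases use glutathione to reduce peroxides, and the 4 studied here are selenoproteins, whose synthesis needs selenium. Of them, GPX1 is the widespread cytosolic enzyme, GPX2 is best known from gut epithelium, GPX3 is secreted, and GPX4 reduces lipid peroxides in membranes. Nqo1, Hmox1, Gclc, Gclm, Slc7a11 and Txnrd1 are widely used as NRF2 target genes, and Gpx2 has itself been described as a target in human and mouse cells.

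Total depth was 14813940 to 16947400 counts per library, and mitochondrial genes took 0.549% to 1.41% of counts. Of the luminal markers, Epcam and Krt18 were high in every tumour, with 1559 to 2085 and 557 to 1599 CPM in 16IC tumours, and 1227 to 1721 and 578 to 1334 CPM in EIC tumours. The luminal keratin Krt19 was at most 3.53 CPM in 16IC 1, 16IC 3, 16IC 4 and EIC 2, so not every luminal marker was present in every tumour. CPM (the usual abbreviation for counts scaled to a common library size) were computed with edgeR's TMM factors. In bulk tumour RNA, fewer cells of a type and less RNA per cell cannot be told apart. Beside the glutathione peroxidases, the files hold Gpx2-ps1 and Gpx4-ps2, pseudogenes of Gpx2 and Gpx4. Gpx2-ps1 had at most 3 counts in a tumour. Gpx4-ps2 had 13.5% to 17.5% as many counts as Gpx4 in every tumour, so the Gpx4 values are uncertain where reads could be shared.

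The stretches before the transcription start were searched for the letters that NRF2 is known to bind, and are printed 5′ to 3′ on the strand named. RefSeq windows on GRCm38.p6 (250 bases before to 50 after a start) matched 8 of the 10 genes. Hmox1 and Gclc are named only. The core of the antioxidant response element, TGACNNNGC on either strand, was found in the windows of 2 of the 8 genes, Gclm and Txnrd1, beside 14.0% of all 27025 genes. Counted by window, it was in 2 of the 13 windows of the 8 genes and in 12.4% of all 32851 windows. Both matches lay before the start, where 11.5% of all genes held the letters. The capitals below mark the match, which reads on the minus strand in both. The Gclm stretch is chr3:122245403-122245451 (plus strand), with the first base of the match 134 bases before the start. The Txnrd1 stretch is chr10:82859094-82859142 (plus strand), from 1 of 3 windows of the gene, with the first base of the match 92 bases before that start.
Gclm: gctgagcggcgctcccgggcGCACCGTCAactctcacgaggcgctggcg
Txnrd1: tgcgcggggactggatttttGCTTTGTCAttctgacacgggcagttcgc
The 250 bases before the start of Gpx2, chr12:76795555-76795804 (minus strand), and of Nqo1, chr8:107403206-107403455 (minus strand), are shown because these were the 2 genes that varied most between tumours. Neither holds the core letters, and neither holds the AP-1 letters TGANTCA, which can overlap the core at their first bases and were found for 8.97% of all genes and none of the 8. This says only that the letters are not in these windows.
Gpx2: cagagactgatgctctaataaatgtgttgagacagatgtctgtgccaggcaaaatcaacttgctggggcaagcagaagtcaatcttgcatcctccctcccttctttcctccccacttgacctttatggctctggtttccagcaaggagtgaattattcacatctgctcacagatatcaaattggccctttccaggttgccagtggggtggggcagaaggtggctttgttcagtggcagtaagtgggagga
Nqo1: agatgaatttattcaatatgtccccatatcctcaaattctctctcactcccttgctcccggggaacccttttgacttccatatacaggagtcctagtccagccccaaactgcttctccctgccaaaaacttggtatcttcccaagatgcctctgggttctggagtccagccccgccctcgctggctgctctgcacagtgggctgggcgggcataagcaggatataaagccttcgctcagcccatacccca

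Gpx2 (chr12:76792333-76795554) ranged over 747-fold, more than any of the other 9 genes. It had 7.92, 1.19, 270.0, 57.0 and 2.64 CPM in 16IC tumours 1 to 5, and 0.811, 41.5, 4.43, 0.625 and 0.361 CPM in EIC tumours 1 to 5. These rest on 110, 20, 4439, 832 and 45 counts in 16IC tumours, and on 14, 698, 74, 10 and 6 counts in EIC tumours. The highest level was in 16IC 3, followed by 16IC 4 and EIC 2, and the lowest in EIC 5, so high and low tumours occurred in both genotypes and the groups overlapped. The mean was 67.8 ± 115 CPM in 16IC tumours and 9.54 ± 17.9 CPM in EIC tumours (SD, n = 5 each). The fitted difference of 16IC over EIC was 2.83 ± 1.66 on the log2 scale (SE, 95% interval -0.84 to 6.50). It was 0.85 without 16IC 3 and 5.44 without EIC 2. Across the 10 tumours the SD of log2 CPM was 3.06, which ranked 55 among the 14915 genes tested.

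**Figure D1:**
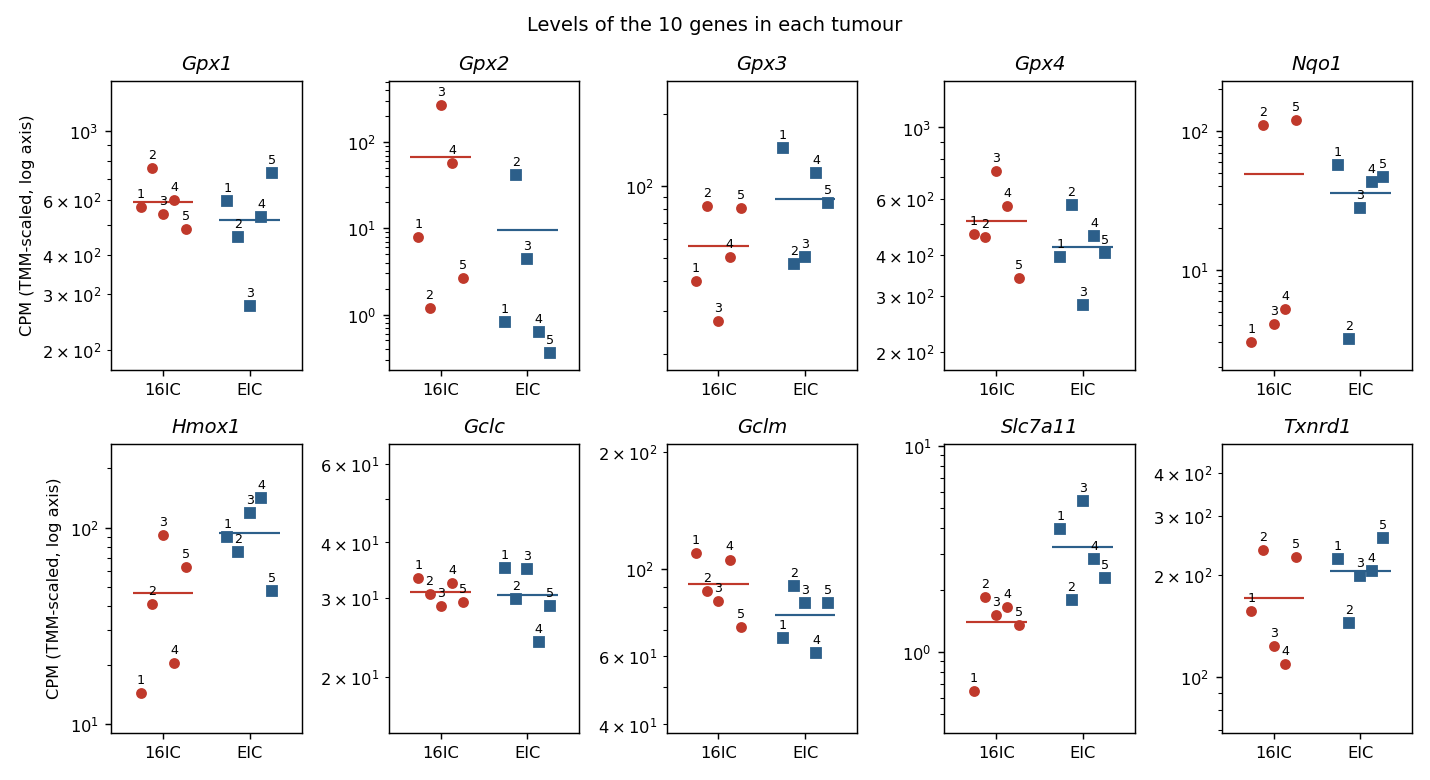
TMM-scaled CPM (log axis) of each of the 10 genes in 5 16IC tumours (circles) and 5 EIC tumours (squares), with the tumour number above each point and a line at the group mean. Gpx2 runs from 0.361 to 270.0 CPM and Nqo1 from 3.03 to 121 CPM with a gap between 5.21 and 28.0 CPM, while Gclc stays between 24.0 and 35.0 CPM.

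Between genotypes, none of the 9 other genes passed the test across all genes. The edgeR quasi-likelihood test called 0 of 14915 genes (0.0%) at a Benjamini-Hochberg adjusted p under 0.05, and 1958 genes (13.1%) had an unadjusted p under 0.05. DESeq2 called 356 of 16838 genes (2.11%), with none of the 9 among them. By groups of CPM that did not overlap, 385 genes (2.58%) separated the genotypes, and none of the 10 genes did.

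Among the peroxidases, Gpx1 and Gpx4 were the highest on the scale per gene length. The authors' FPKM for Gpx1 averaged 397 ± 66.4 in 16IC tumours and 349 ± 116 in EIC tumours (SD, n = 5 each). Gpx4 averaged 287 ± 78.3 FPKM in 16IC tumours and 239 ± 58.9 FPKM in EIC tumours. In EIC tumours the level of Gpx1 exceeded that of Gpx4 by less than the SD of Gpx1. The other 8 genes averaged at most 30.4 FPKM in 16IC tumours and at most 52.2 FPKM in EIC tumours. There the order by FPKM was Hmox1, Gpx3, Txnrd1, Nqo1, Gclm, Gclc, Gpx2 and Slc7a11, and among the first 4 each neighbour differed by less than the larger SD of the pair. Slc7a11 was the lowest, at 0.0971 ± 0.0310 FPKM in 16IC tumours and 0.227 ± 0.101 FPKM in EIC tumours.

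Gpx1 (chr9:108338903-108340343) had 571, 758, 544, 600 and 486 CPM in 16IC tumours 1 to 5, and 597, 456, 275, 529 and 730 CPM in EIC tumours 1 to 5. The groups overlapped, with EIC 3 lowest of all, and the log2 difference was 0.19 ± 0.24 (SE, edgeR adjusted p = 0.739). Gpx4 (chr10:80047166-80056439) had 468, 456, 734, 570 and 340 CPM in 16IC tumours, and 395, 574, 281, 460 and 408 CPM in EIC tumours. Its groups overlapped too, with a log2 difference of 0.28 ± 0.24 (SE, edgeR adjusted p = 0.616). The secreted enzyme's gene Gpx3 (chr11:54902453-54910377) had 40.1, 82.2, 27.3, 50.5 and 80.6 CPM in 16IC tumours, and 144, 47.4, 50.6, 113 and 84.9 CPM in EIC tumours. Its highest levels were in EIC 1 and EIC 4 and its lowest in 16IC 3, with overlap in between and a log2 difference of -0.65 ± 0.38 (SE, edgeR adjusted p = 0.478).

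Of the 3 genes that supply glutathione, 2 encode the subunits of glutamate-cysteine ligase, the first enzyme of glutathione synthesis, and these were the steadiest of the 10. Gclc, the catalytic subunit (chr9:77754535-77794485), had 33.3, 30.6, 28.9, 32.5 and 29.4 CPM in 16IC tumours, and 35.0, 29.9, 34.8, 24.0 and 28.9 CPM in EIC tumours. Gclm, the modifier subunit (chr3:122245557-122270732), had 110, 87.8, 82.8, 106 and 70.9 CPM in 16IC tumours, and 66.6, 90.8, 81.9, 60.9 and 81.7 CPM in EIC tumours. The groups overlapped in both. The log2 difference was 0.02 ± 0.13 (SE, 95% interval -0.27 to 0.31, edgeR adjusted p = 0.960) for Gclc and 0.26 ± 0.16 (SE, 95% interval -0.10 to 0.62, edgeR adjusted p = 0.491) for Gclm. Gclm shares 4.71% of its exonic bases with a gene on the other strand and 3.88% with one on its own strand, Gm6061. Slc7a11 (chr3:49892526-50443614) encodes the cystine importer that feeds cysteine into glutathione. It was low in every tumour, at 0.648, 1.84, 1.52, 1.65 and 1.35 CPM in 16IC tumours, and 3.94, 1.78, 5.39, 2.81 and 2.29 CPM in EIC tumours. Only 16IC 2 reached above the lowest EIC tumour, EIC 2. Its log2 difference was -1.20 ± 0.40 (SE, 95% interval -2.08 to -0.33), with an adjusted p of 0.290 by edgeR (unadjusted 0.0116) and 0.0799 by DESeq2.

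Nqo1 (chr8:107388225-107403206) encodes the quinone reductase that serves most often as a readout of NRF2. It had 3.03, 111, 4.07, 5.21 and 121 CPM in 16IC tumours 1 to 5, and 57.2, 3.15, 28.0, 43.3 and 46.5 CPM in EIC tumours 1 to 5. The tumours fell into 4 at 3.03 to 5.21 CPM (16IC 1, 16IC 3, 16IC 4 and EIC 2) and 6 at 28.0 to 121 CPM, with no tumour in the log2 gap of 2.40 between them. Both genotypes held low and high tumours, and the log2 difference of 0.45 ± 1.09 (SE, edgeR adjusted p = 0.870) turned to -0.10 without 16IC 2 and to -0.23 without 16IC 5. After Gpx2, Nqo1 had the widest spread of the 10 genes, with an SD of log2 CPM of 2.13 that ranked 281 among the genes tested.

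Hmox1 (chr8:75093621-75100589), the inducible haem oxygenase, had 14.4, 40.7, 92.0, 20.5 and 63.3 CPM in 16IC tumours, and 89.1, 75.1, 119, 141 and 47.3 CPM in EIC tumours. 16IC 1 and 16IC 4 were the lowest and EIC 4 and EIC 3 the highest, but 16IC 3 and 16IC 5 lay within the EIC range. The log2 difference was -1.03 ± 0.49 (SE, 95% interval -2.11 to 0.05, edgeR adjusted p = 0.394). Txnrd1 (chr10:82833951-82897712), the cytosolic thioredoxin reductase and itself a selenoprotein, had 157, 238, 124, 110 and 227 CPM in 16IC tumours, and 223, 145, 199, 206 and 257 CPM in EIC tumours. The 3 lowest 16IC tumours and EIC 2 lay below all others, so the low tumours crossed the genotypes, and the log2 difference was -0.27 ± 0.25 (SE, edgeR adjusted p = 0.635).

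The next question was whether the NRF2 targets follow Gpx2 from tumour to tumour. Of the 9 other genes, 3 changed with the Gpx2 level and all 3 fell as Gpx2 rose: Txnrd1, Gpx3 and Nqo1. The slope of each gene on the log2 CPM of Gpx2 was fitted with edgeR's quasi-likelihood test over 10 tumours and adjusted over all genes. The background in this test was high, since 3095 of 14914 genes (20.8%) passed, 1669 (11.2%) falling and 1426 (9.56%) rising. Without 16IC 3, 16IC 4 or EIC 1 the count over all genes was 1703, 2015 or 1956. A count of 3 in 9 is therefore to be read against 20.8%, and 0 in 9 rising against 9.56%.

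Txnrd1 fell by 0.13 on the log2 scale per log2 unit of Gpx2 (SE 0.0223, adjusted p = 0.00555). In order of decreasing Gpx2, the tumours 16IC 3, 16IC 4, EIC 2, 16IC 1, EIC 3, 16IC 5, 16IC 2, EIC 1, EIC 4 and EIC 5 had 124, 110, 145, 157, 199, 227, 238, 223, 206 and 257 CPM of Txnrd1. The 4 with the most Gpx2 thus had the least Txnrd1. Pearson's r of the log2 values was -0.925 (permutation p = 0.00027) and Spearman's rho was -0.879 (permutation p = 0.00169). Of the genes tested, 0.892% had an r as low or lower. Without the 2 tumours farthest from the median Gpx2 level, 16IC 3 and 16IC 4, r was -0.895 (exact permutation p = 0.00226). Within the 6 tumours high in Nqo1, which hold little of the range of Gpx2, r was -0.582 (exact permutation p = 0.232). A graded relation is therefore not shown apart from the step between the 4 tumours and these 6.

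Gpx3 fell by 0.21 on the log2 scale per log2 unit of Gpx2 (SE 0.0403, adjusted p = 0.00759). Its r was -0.866 (permutation p = 0.00126) and its rho -0.903 (permutation p = 0.00077), and 3.65% of the genes tested had an r as low or lower. Without the same 2 tumours r was -0.798 (exact permutation p = 0.0168). Within the 6 tumours high in Nqo1 it was -0.692 (exact permutation p = 0.121). Here too, a graded relation is not shown apart from the step between the 4 tumours and these 6. Between the 2 peroxidases, the tumour with the most Gpx2 thus had the least Gpx3, and the 3 with the least Gpx2 had 84.9 to 144 CPM of Gpx3.

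Nqo1 fell by 0.59 on the log2 scale per log2 unit of Gpx2 (SE 0.153, adjusted p = 0.0239). The 4 tumours low in Nqo1 had 7.92 to 270.0 CPM of Gpx2, and the 6 high in Nqo1 had 0.361 to 4.43 CPM. Because the Nqo1 levels form separate clusters, no r is given over all 10 tumours. Within the 6 tumours high in Nqo1 r was 0.0113 (exact permutation p = 0.981), but these hold little of the range of Gpx2, and nothing is read from that value. The Nqo1 slope lost its call without 16IC 3 (adjusted p = 0.0702) and without 16IC 4 (adjusted p = 0.0663).

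**Figure D2:**
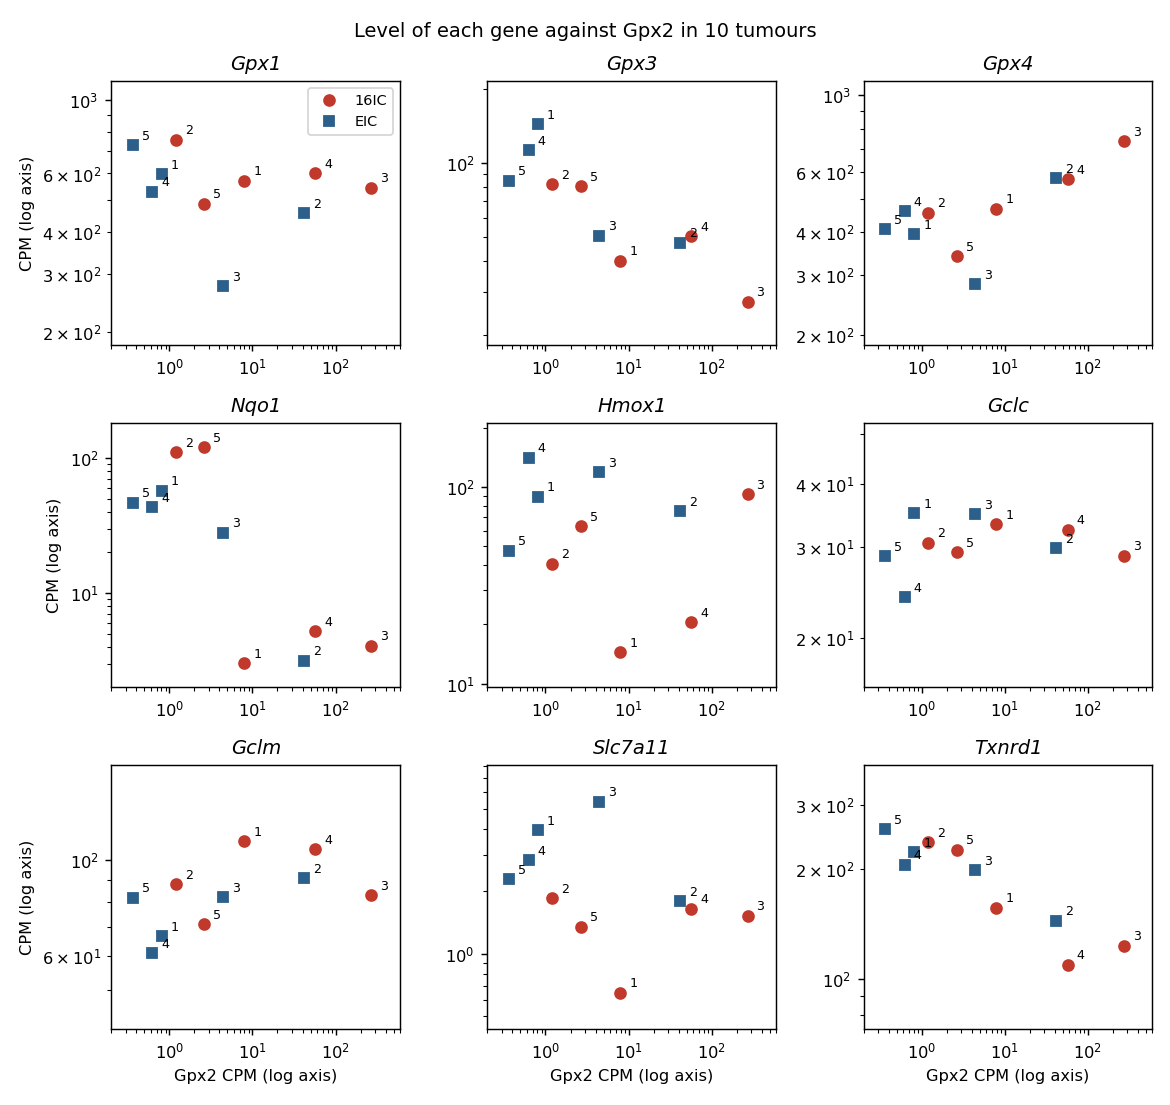
TMM-scaled CPM of the 9 other genes (vertical, log axis) against the CPM of Gpx2 (horizontal, log axis) in each 16IC tumour (circles) and EIC tumour (squares), with tumour numbers. Txnrd1, Gpx3 and Nqo1 are lower where Gpx2 is higher, and the Nqo1 points form 4 low and 6 high tumours.

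The glutathione synthesis genes, the cystine importer and haem oxygenase did not pass the test. The slopes on Gpx2 were 0.01 for Gclc (SE 0.0222, adjusted p = 0.873), 0.05 for Gclm (SE 0.0273, adjusted p = 0.234), -0.11 for Slc7a11 (SE 0.0873, adjusted p = 0.396) and -0.04 for Hmox1 (SE 0.0926, adjusted p = 0.791). The 95% interval for Gclc was -0.04 to 0.05 and that for Hmox1 -0.24 to 0.17. Gclm had an r of 0.535 (permutation p = 0.113) but a rho of 0.697 (permutation p = 0.0308). Among the other peroxidases, Gpx1 had a slope of -0.03 (SE 0.0397, adjusted p = 0.596) and Gpx4 one of 0.09 (SE 0.0301, adjusted p = 0.0590). The r of Gpx4 was 0.696 (permutation p = 0.0251) over 10 tumours, 0.497 (exact permutation p = 0.175) without 16IC 3, and 0.309 (exact permutation p = 0.453) without 16IC 3 and 16IC 4. Within the 6 tumours high in Nqo1, r was -0.819 for Gpx4 (exact permutation p = 0.0458) and -0.799 for Gpx1 (exact permutation p = 0.0486). These 6 hold little of the range of Gpx2, and nothing is read from either value. Among them EIC 3 had the most Gpx2, and it had the least Gpx4 and Gpx1 of all 10 tumours. The relations with Gpx2 are 9 in 1 family, and their permutation p-values are not adjusted over the genes chosen.

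With genotype as a term in the fit, the same 3 genes passed: Txnrd1 with a slope of -0.13 (adjusted p = 0.0135), Gpx3 with -0.20 (adjusted p = 0.0218) and Nqo1 with -0.67 (adjusted p = 0.0157), against 16.3% of all genes. With the linear Gpx2 level in place of its log2, in which 16IC 3 alone sets most of the range, 0 genes passed, 2705 had an unadjusted p under 0.05, and the adjusted p was 0.251 for Txnrd1, 0.204 for Gpx3 and 0.284 for Nqo1.

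**Figure D3:**
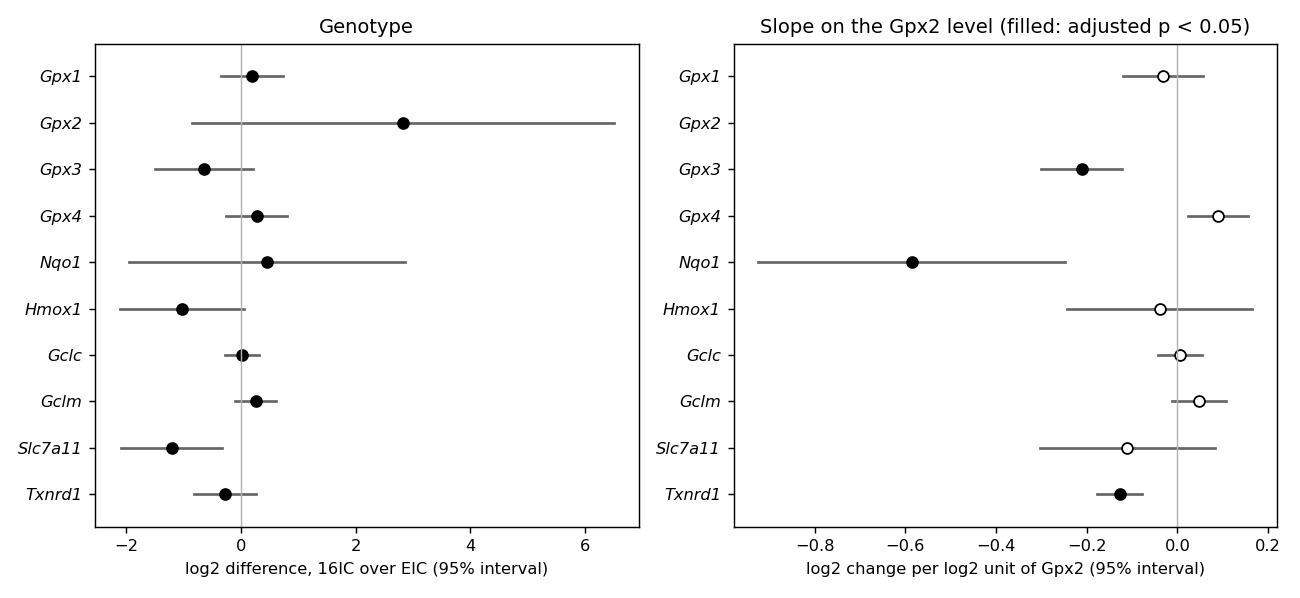
Left, fitted log2 difference of 16IC over EIC for each of the 10 genes. Right, fitted log2 change per log2 unit of Gpx2 for the other 9, with filled points for Txnrd1, Gpx3 and Nqo1 at an adjusted p under 0.05; bars are 95% intervals over 10 tumours, and on the left those of Gpx2 and Nqo1 are the widest.

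As a set, the 6 NRF2 targets also showed no common direction among themselves. Over their 15 pairs, Spearman's rho across the 10 tumours had a median of -0.0182, and 8 pairs were negative. It ran from -0.697 between Hmox1 and Gclm to 0.794 between Nqo1 and Txnrd1. These values share the same libraries and are given as a description, with no median over other gene pairs beside them. Gclc varied only 1.46-fold between tumours and Slc7a11 had 9 to 90 counts, so the ranks in their pairs are imprecise.

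The regulators of NRF2 and the further genes of the pathway were taken from lists drawn up with earlier results of these data known. Of 10 regulators, 0 passed the test on Gpx2 in either direction, with a median slope of -0.03 against 0.0001 over all genes. Over all genes 20.8% passed. Nfe2l2 itself averaged 80.0 ± 9.43 CPM in 16IC tumours and 80.2 ± 22.9 CPM in EIC tumours (SD, n = 5 each), and Keap1 averaged 73.6 ± 9.98 CPM in 16IC tumours and 74.1 ± 8.16 CPM in EIC tumours. Sqstm1, which binds KEAP1, and the related factor Nfe2l1 had the smallest unadjusted p on Gpx2 of the regulators, with slopes of 0.05 (adjusted p = 0.125) and -0.06 (adjusted p = 0.134). Sqstm1 shares 17.3% of its exonic bases with Mrnip on the other strand. The Nfe2l2 mRNA does not report the NRF2 protein, which KEAP1 controls by degradation. Between genotypes, 2 of the 10 regulators were higher and 8 lower, none past edgeR's test, beside 7114 higher and 7801 lower over all genes. Mafg, a small MAF partner of NRF2, averaged 74.8 ± 12.7 CPM in 16IC tumours and 112 ± 4.79 CPM in EIC tumours, with no overlap. Its log2 difference was -0.58 ± 0.13 (SE), with an adjusted p of 0.249 by edgeR and 0.0109 by DESeq2. The DESeq2 call was lost without 16IC 1, EIC 4 or EIC 5 (highest adjusted p = 0.0569). Bach1, a repressor that competes for the same elements, averaged 38.1 ± 7.41 CPM in 16IC tumours and 56.7 ± 7.31 CPM in EIC tumours, also with no overlap (adjusted p = 0.275 by edgeR and 0.0650 by DESeq2).

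Of 23 further NRF2 targets that could be tested, 5 rose and 3 fell with Gpx2, with a median slope of 0.05. Over all genes 9.56% rose and 11.2% fell, and the share of the list that fell is near that background. Such counts depend on how the lists were drawn. Prdx1 and Txn1, which both fell, are not in this list and are counted with the thioredoxin genes below. Those that rose were Gstm1, Me1, Osgin1, Cat and Blvrb, and those that fell were Pgd, Akr1b8 and Gsr. Gstm1, a glutathione S-transferase, had 59.9, 30.4, 177, 61.8 and 50.3 CPM in 16IC tumours 1 to 5, and 30.1, 205, 30.4, 18.2 and 28.1 CPM in EIC tumours 1 to 5. EIC 2 and 16IC 3 were highest, and the slope was 0.35 (SE 0.0560, adjusted p = 0.00447). Me1, malic enzyme, a source of NADPH, had a slope of 0.34 (SE 0.0582, adjusted p = 0.00506). It had 661, 199, 757, 758 and 182 CPM in 16IC tumours, and 154, 800, 520, 128 and 145 CPM in EIC tumours, which puts the 4 tumours with low Nqo1 and EIC 3 above the rest. Pgd, an NADPH-forming enzyme of the pentose phosphate pathway, fell with a slope of -0.19 (adjusted p = 0.0146). The calls of Gstm1, Me1 and Pgd held with each tumour left out in turn. Akr1b8 lost its call without 16IC 3, and Osgin1, Cat, Blvrb and Gsr lost theirs in 5 to 7 of the 10 such fits, those without 16IC 4, EIC 1 and EIC 4 among them for all 4. Over the list the counts with a tumour left out were 2 to 6 rising and 1 to 3 falling, lowest for rising without 16IC 4, EIC 1 or EIC 4 and for falling without 16IC 3. With genotype as a term 3 rose and 1 fell.

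**Figure D4:**
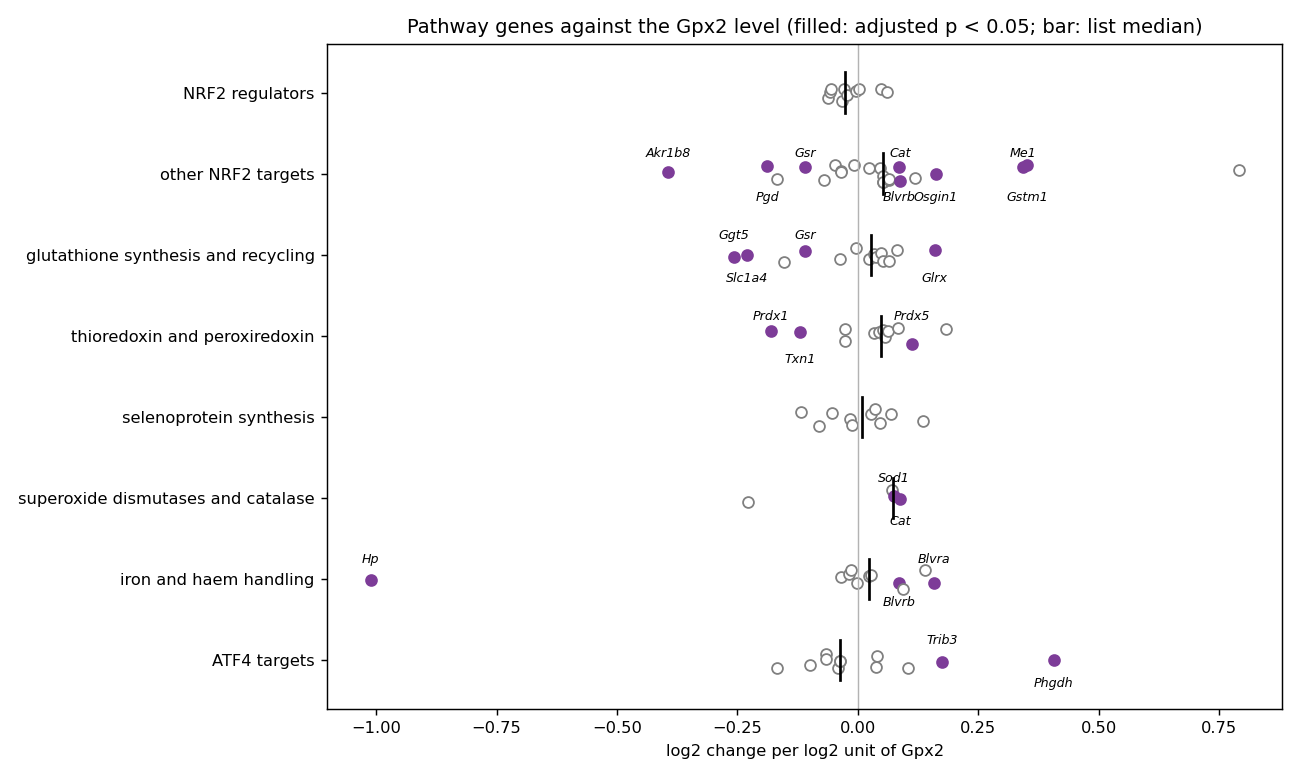
Fitted log2 change per log2 unit of Gpx2 (horizontal) for the tested genes of 8 pathway lists (rows); filled points are genes at an adjusted p under 0.05, which are named, and a bar marks each list's median. Called genes lie on both sides of 0 among the other NRF2 targets, and none is called among the NRF2 regulators or the selenoprotein synthesis genes.

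Gsta3, another glutathione S-transferase of that list, differed widely between tumours without passing on Gpx2 (slope 0.79, adjusted p = 0.0509). It averaged 19.0 ± 19.5 CPM in 16IC tumours and 1.11 ± 0.818 CPM in EIC tumours (SD, n = 5 each). The 16IC tumours 1 to 5 had 29.6, 0.178, 19.2, 45.6 and 0.235 CPM. Of these, 16IC 2 and 16IC 5, both high in Nqo1, lay within the EIC range of 0.125 to 2.40 CPM. Between genotypes its log2 difference was 4.09 ± 1.33 (SE), with an adjusted p of 0.290 by edgeR and 0.0448 by DESeq2, a call that was lost in 6 of 10 fits with a tumour left out.

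Of 14 other genes of glutathione synthesis and recycling, Glrx, a glutaredoxin, rose with Gpx2 and Gsr, Slc1a4 and Ggt5 fell. For this list and those below, 9.56% of all genes rose and 11.2% fell. Gsr here and Cat below were already counted among the further NRF2 targets. Slc1a4, a neutral amino acid transporter, had a slope of -0.23 (adjusted p = 0.0144) that held with each tumour left out, while the others each lost their call without some tumours, 16IC 4, EIC 1 and EIC 4 included. Among 12 thioredoxin and peroxiredoxin genes, Prdx5 rose with a slope of 0.11 (adjusted p = 0.0130) and Prdx1 and Txn1 fell. Prdx1 is a cytosolic peroxidase that thioredoxin reduces, and its slope was -0.18 (adjusted p = 0.0148). The call of Prdx1 held with each tumour left out, that of Prdx5 was lost without 16IC 3, and that of Txn1, thioredoxin itself (adjusted p = 0.0495), was lost in 9 of 10 such fits. Prdx5 shares 19.1% of its exonic bases with Trmt112 on the other strand. Of the 4 superoxide dismutase and catalase genes, Sod1 and Cat rose with slopes of 0.07 (adjusted p = 0.0301) and 0.09 (adjusted p = 0.0298), both lost without 16IC 2, 16IC 3, 16IC 4 or EIC 1. Of the genes with the smallest p between genotypes in these lists, Sod2, the mitochondrial dismutase, had a log2 difference of 0.46 ± 0.15 (SE, edgeR adjusted p = 0.290), the peroxiredoxin Prdx6 one of 0.43 ± 0.18 (adjusted p = 0.362) and Hagh, a glyoxalase, one of 0.35 ± 0.17 (adjusted p = 0.391).

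Since 5 of the genes encode selenoproteins, a list of genes for selenoprotein synthesis and selenium supply was read beside them. None of the 10 genes of that list passed on Gpx2 (median slope 0.01), beside 20.8% of all genes. In 16IC over EIC, 7 were higher and 3 lower with none past edgeR's test, beside 7114 higher and 7801 lower over all genes. Scly, which frees selenium from selenocysteine, averaged 76.8 ± 22.8 CPM in 16IC tumours and 37.1 ± 9.06 CPM in EIC tumours, with no overlap. Its log2 difference was 1.05 ± 0.24 (SE), with an adjusted p of 0.249 by edgeR and 0.0122 by DESeq2, and the DESeq2 call was lost without 16IC 1 or 16IC 3. Selenop, the plasma selenium carrier, had a log2 difference of 0.49 ± 0.23 (SE, edgeR adjusted p = 0.391), and Pstk, a kinase of selenocysteine tRNA synthesis, a slope on Gpx2 of 0.07 (adjusted p = 0.0917). Selenop and Pstk share 15.4% and 58.8% of their exonic bases with another gene. Of the peroxidases outside the 10 genes, Gpx8, an enzyme of the endoplasmic reticulum, averaged 14.2 ± 3.44 CPM in 16IC tumours and 7.22 ± 2.21 CPM in EIC tumours. Its adjusted p was 0.261 by edgeR and 0.0251 by DESeq2, a call lost in 5 of 10 fits with a tumour left out. Gpx7 fell with Gpx2 at a slope of -0.24 (adjusted p = 0.0361), lost in 6 of 10 such fits.

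Markers of other cell types moved with Gpx2, in the direction of Txnrd1, Gpx3 and Nqo1. Of the markers tested, 6 of 8 for fibroblasts, 8 of 10 for adipocytes, 7 of 11 for macrophages, 4 of 8 for endothelium and 5 of 5 for neutrophils fell as Gpx2 rose, and none rose. Over all genes 11.2% fell and 9.56% rose. With a tumour left out these counts were 5 to 6, 3 to 10, 3 to 7, 1 to 4 and 0 to 5, and each was at its lowest without 16IC 3. The adipocyte count was as low without 16IC 4 or EIC 1, the fibroblast count without EIC 1 or EIC 4, and the endothelial count without EIC 1. With genotype as a term the counts were 6, 6, 7, 4 and 2, so most neutrophil calls were lost. Between genotypes, DESeq2 called 3 of the 5 neutrophil markers, S100a8, Cxcr2 and Mmp9, all lower in 16IC, beside 2.11% of all genes. These DESeq2 calls were lost in 5, 6 and 5 of 10 fits with a tumour left out, and edgeR called 0. Summed over a list, fibroblast markers came to 424 to 3867 CPM in 16IC tumours and 1943 to 7098 CPM in EIC tumours. Adipocyte markers summed to 20.4 to 424 CPM in 16IC tumours and 53.9 to 391 CPM in EIC tumours. For macrophages the sums were 347 to 1250 CPM in 16IC tumours and 482 to 1326 CPM in EIC tumours, and for endothelium 75.9 to 229 CPM in 16IC tumours and 144 to 242 CPM in EIC tumours. Neutrophil markers summed to 3.77 to 24.1 CPM in 16IC tumours and 15.1 to 101 CPM in EIC tumours. None of these lists had a gene at 0 in every tumour. Their part in the slopes of Txnrd1, Gpx3 and Nqo1 was not tested. Intestinal epithelium markers, listed because GPX2 is known from gut, summed to 0.547 to 3.46 CPM in 16IC tumours and 1.37 to 7.01 CPM in EIC tumours.

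The luminal sums were 3889 to 5406 CPM in 16IC tumours and 3741 to 5982 CPM in EIC tumours. Of 9 luminal markers tested 4 fell with Gpx2, namely Krt8, Krt19, Cdh1 and Foxa1, beside 11.2% of all genes. Krt8 lost its call in 8 of 10 fits with a tumour left out and the other 3 kept theirs. The same held with genotype as a term, where Krt8 had an adjusted p of 0.144. Krt19, chosen after seeing its levels, had 3.53, 343, 3.04, 0.0 and 233 CPM in 16IC tumours 1 to 5, and 391, 2.79, 243, 264 and 446 CPM in EIC tumours 1 to 5. The 4 tumours low in this luminal keratin were the 4 low in Nqo1. Epcam had a slope of 0.07 (adjusted p = 0.0639).

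**Figure D5:**
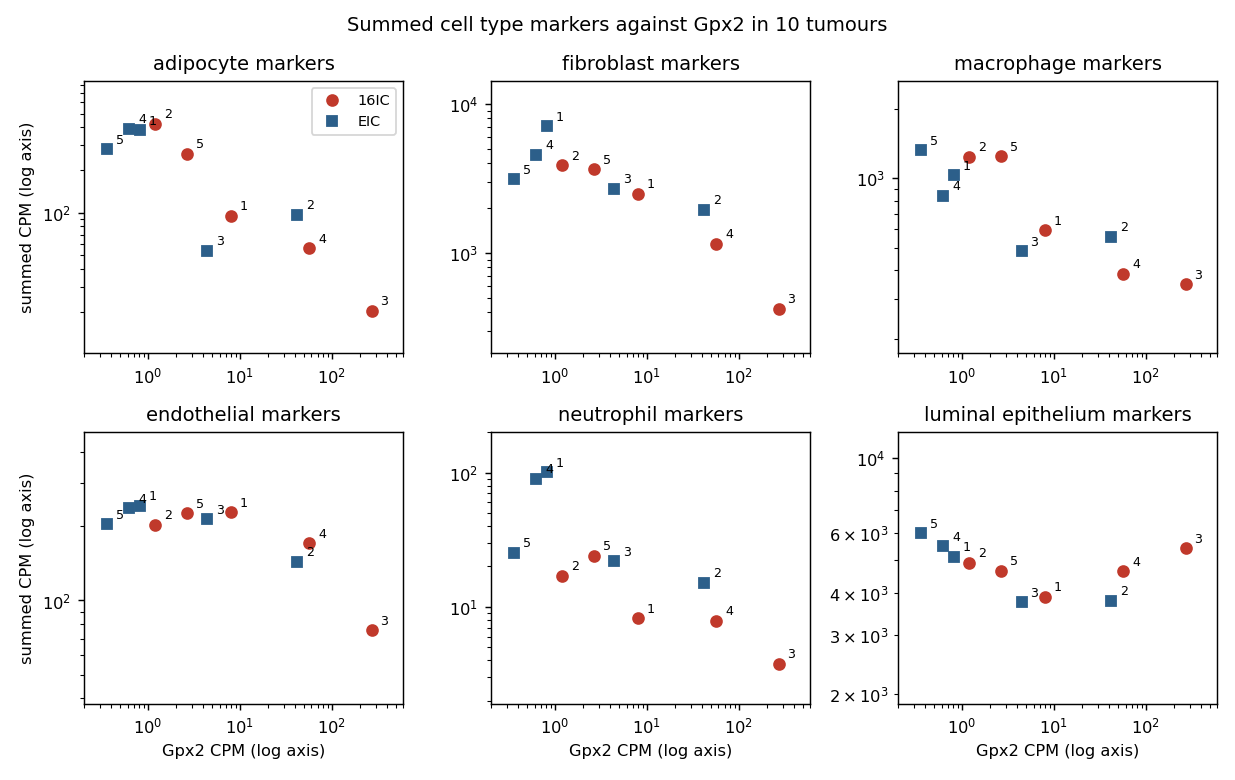
Summed TMM-scaled CPM of 6 marker lists (vertical, log axis) against the CPM of Gpx2 (horizontal, log axis) in each 16IC tumour (circles) and EIC tumour (squares), with tumour numbers. Adipocyte and fibroblast sums are lowest in 16IC 3, at 20.4 and 424 CPM, the tumour with the most Gpx2, while luminal sums stay between 3741 and 5982 CPM.

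The genes whose log2 CPM was most like that of Gpx2 were sought among genes with a mean log2 CPM of at least 2, predicted genes left out. Over the 10 tumours, the highest Pearson's r was that of Dbp (0.978), a clock output transcription factor, followed by Sirt3 (0.978), Pcmtd2 (0.976), Trf (0.975), Acat1 (0.973) and Tmem106c (0.972). Dbp had 36.5, 19.4, 236, 166 and 23.2 CPM in 16IC tumours, and 13.3, 115, 47.8, 13.2 and 5.96 CPM in EIC tumours, highest in the same 3 tumours as Gpx2. The most opposite were Med25 (-0.993), Rnf19b (-0.987), Ppm1g (-0.986), Pgm1 (-0.986), Psip1 (-0.973) and Plk3 (-0.971). None of the 12 is among the 9 other genes. Trf shares 63.5% of its exonic bases with Gm20425 on its strand and Dbp 18.0% with Sphk2 on the other, so their counts are uncertain where reads could be shared.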

How the data were processed

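RNA of 10 mammary tumours was sequenced. The labels' protocols name a Qiagen RNeasy Mini kit for extraction and NEBNext Ultra II for libraries. The submitters' processing notes list HTSeq, STAR, Trimmomatic, limma and edgeR with GRCm38 (mm10). Not given in the sources used here are versions, annotation release, strand setting and what was done with multi-mapping reads. Genes that overlap others or have pseudogenes are therefore uncertain. The deposited table holds raw counts per gene and library, which every test used. The authors' normalized counts in it are a signal, the raw count over a constant for each library. The authors' FPKM served for levels between genes. The authors' log2 fold changes and their p-values (157 genes without one) were read only as a check.

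The 10 genes and all gene lists were chosen with earlier results of these data known. Counts were scaled by TMM, filtered with filterByExpr (minimum count 10, leaving 14915 genes and 99.8% of counts) and fitted with edgeR 4.0.16 in R 4.3.3 (robust quasi-likelihood, Benjamini-Hochberg over all genes, threshold 0.05). One fit had genotype, the other the log2 CPM of Gpx2 (prior count 2). SEs come from the F statistic. DESeq2 1.42.0, other scalings and filters, a genotype term, a linear Gpx2 level and leaving out each tumour were alternatives, the last for list genes added after seeing the data. Correlations used log2 CPM with two-sided permutation tests (100000 resamples, or exact under 10 tumours; SciPy 1.17.1). Code was tested on simulated counts. Beside the 10 genes and their pseudogenes, the text names from each pathway list the genes past a test and the 2 with the smallest p, and the 6 genes most and least like Gpx2. Nfe2l2, Keap1 and the markers were named beyond that rule, and milk genes were treated like a pathway list. Positions are those of the table, and all 10 match GENCODE mouse release 21. The closest libraries of a group, 16IC 2 and 16IC 5, were not duplicates (chi-square over its degrees of freedom was 26.3). The median biological coefficient of variation was 33.6%, so the spread between tumours limits precision.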

Additional observations from a re-analysis of the deposited data

Results flagged for a closer look

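Nqo1 in EIC 2 stood apart from the rest of its group, at 3.15 CPM against 28.0 to 57.2 CPM in the other 4 EIC tumours. On the log2 CPM scale, which was used for this check, the gap to the nearest tumour was 0.751 of the group's range, above Dixon's critical value of 0.71 for 5 samples. On linear CPM the same ratio was 0.459, below that value, so it stands apart on the log2 scale only. Of 20 groups checked on log2 CPM (10 genes in 2 genotypes) this was the 1 that passed, and chance alone passes about 1 in 20. Gpx2 was among the genes checked, but its variation led to its choice, so its ratios are a description and not a test. The gap above 16IC 3 and EIC 2's nearest tumours was 0.792 and 0.901 of the group's range on linear CPM. On log2 CPM it was 0.292 and 0.497. EIC 2 also had the most Gpx2 of the EIC tumours, 41.5 CPM.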

How the results depend on the processing

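No paired analysis was possible because the tumour numbers were given in sample order and the labels pair no tumours. The count of genes called between genotypes was 0 with edgeR and 356 with DESeq2, and 0 to 2 with a tumour left out. On the Gpx2 level, 3095 genes were called, 0 with the linear Gpx2 level (smallest adjusted p 0.0502), and 1703 to 3558 with a tumour left out. The number of the 9 genes called on Gpx2 was 3, 0 with the linear level, and 2 to 4 with a tumour left out. The sign turned for the genotype difference of Gclc with total count scaling (-0.0319) and without a tumour (-0.0609 to 0.0731), and for that of Nqo1 without a tumour (-0.226 to 0.753). On Gpx2 it turned for the slope of Hmox1 with genotype as a term (0.0568), per linear CPM (0.000822) and without a tumour (-0.153 to 0.0148), and for the slope of Gclc per linear CPM (-0.000304) and without a tumour (-0.00611 to 0.0211). It turned for the correlation of Hmox1 centred within genotype (0.147) and without a tumour (-0.418 to 0.0253), and for that of Gclc without a tumour (-0.186 to 0.331). None of these Gclc and Hmox1 values passed a test. The Nqo1 slope also lost its call with no filter on low counts (adjusted p = 0.0571), and Gpx4 gained one without EIC 3 (adjusted p = 0.0229). The cause was not tested. Scalings moved the median of all genes by less than 0.1 on the log2 scale. Gpx2 had 20 or fewer counts in 4 tumours and Slc7a11 under 6 CPM in all, which limits the precision of their lowest levels.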

Other observations

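ATF4, the stress factor that also drives Slc7a11, was read through a list of 12 genes. Of these, 2 rose with Gpx2 and 0 fell, beside 9.56% rising and 11.2% falling over all genes. Trib3, a pseudokinase induced by ATF4, had a slope of 0.18 (adjusted p = 0.0151), and Phgdh, the first enzyme of serine synthesis, one of 0.41 (adjusted p = 0.0152), and both calls held with each tumour left out in turn. Phgdh had 74.1, 10.9, 150.2, 140.7 and 10.5 CPM in 16IC tumours 1 to 5, and 15.2, 69.7, 97.96, 11.9 and 24.6 CPM in EIC tumours 1 to 5. Between genotypes, 5 of the 12 were higher and 7 lower, none past the test of edgeR or DESeq2. The smallest p were those of Ddit4, an inhibitor of mTORC1, and Ddit3, a stress transcription factor. Ddit4 averaged 92.6 ± 41.9 CPM in 16IC tumours and 280 ± 205 CPM in EIC tumours (SD, n = 5 each), with a log2 difference of -1.59 ± 0.50 (SE) and an adjusted p of 0.289 by edgeR and 0.0530 by DESeq2. Ddit3 averaged 15.7 ± 5.31 CPM in 16IC tumours and 27.9 ± 18.8 CPM in EIC tumours, with an edgeR adjusted p of 0.431.

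Of 11 iron and haem genes beside Hmox1, 2 rose with Gpx2 and 1 fell, where 9.56% rose and 11.2% fell over all genes. Blvrb was already counted among the further NRF2 targets. The biliverdin reductases Blvra (slope 0.16, adjusted p = 0.0240) and Blvrb (slope 0.09, adjusted p = 0.0483) rose, and both lost their call without 16IC 4 or EIC 1. Hp, the haemoglobin-binding haptoglobin, fell with a slope of -1.01 (adjusted p = 0.0102) that held with each tumour left out. It had 2.95, 140, 0.179, 0.274 and 53.7 CPM in 16IC tumours, and 402, 13.3, 5.27, 315 and 89.9 CPM in EIC tumours. Erythroid markers, with 0 of 5 called, summed to 376 to 907 CPM in 16IC tumours and 302 to 2581 CPM in EIC tumours.

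Of 4 basal and skin keratinocyte markers tested 3 fell with Gpx2, as did 2 of 8 milk genes, Wap and Lalba, beside 11.2% of all genes. With a tumour left out the counts were 1 to 4 and 0 to 4. The keratinocyte count was lowest without EIC 1, and it was 2 without 16IC 3 or 16IC 4 and 2 with genotype as a term. The milk gene count was 0 without 16IC 3, 16IC 4, EIC 1, EIC 2 or EIC 5, 1 without 16IC 2 or 16IC 5, and 1 with genotype as a term. The keratinocyte sums were 6.03 to 36.8 CPM in 16IC tumours and 6.65 to 579 CPM in EIC tumours. Between genotypes, the caseins Csn1s2b and Csn3 had the smallest p of the milk genes. Csn1s2b averaged 91.9 ± 153 CPM in 16IC tumours and 0.731 ± 0.974 CPM in EIC tumours, with no overlap, and had an adjusted p of 0.249 by edgeR and 0.000779 by DESeq2. The DESeq2 call held in 8 fits with a tumour left out, and DESeq2 gave no adjusted p without 16IC 1 or 16IC 4. Csn3 averaged 19764 ± 5668 CPM in 16IC tumours and 9505 ± 4185 CPM in EIC tumours, also with no overlap (adjusted p = 0.292 by edgeR and 0.0851 by DESeq2). Of the iron and haem genes, Fech, which inserts iron into protoporphyrin to form haem, had an edgeR adjusted p of 0.555 between genotypes.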
